A study of Rattus norvegicus with 16 samples.

Results

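The Slc25 family of mitochondrial solute carriers was examined in RNA from the frontal cortex of rats (male, Sprague-Dawley). Members were all genes whose symbol in the deposited table is Slc25a followed by a number, 39 of 17001 symbols, and a symbol with several loci stood for its most abundant locus, by mean over the 16 libraries. Of these, 33 had a mean of at least 1 FPKM (fragments scaled to transcript length and to the mapped fragments of a library) and were tested among 14824 loci. The study asked how a high fat diet and an inhibitor of DNA methylation alter cortical RNA. Rats aged 11 weeks at the start were fed for 7 weeks, with chow in the chow group and with a high fat diet in the other 3 groups. HF animals had the diet alone. HF_PBS animals were also given intraperitoneal injections of PBS, a saline buffer, for 10 days. HF_5AzaD animals were given, also for 10 days, injections of 5-AzaD (5-aza-2′-deoxycytidine, a DNA methyltransferase inhibitor) in PBS. Each group holds 4 libraries, named here by group and the number in their label. Whether replicate libraries are separate animals is not stated in the labels, and p-values therefore reflect only the spread among these libraries, which may be technical.

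Slc25 proteins sit mostly in the inner mitochondrial membrane and pass nucleotides, phosphate, carboxylates, amino acids, cofactors and iron between the matrix and the cytosol. Each is built from a repeated module, and most exchange 1 substrate for another. In brain the ADP/ATP and phosphate carriers serve ATP export, the oxoglutarate and aspartate/glutamate carriers form the malate-aspartate shuttle, and the glutamate carriers serve amino acid oxidation.

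Marker genes of excitatory neurons, GABA neurons, astrocytes and oligodendrocytes were present in all libraries, with 0 of the listed markers at 0 in every library. HF_PBS 3 and HF_PBS 4 had summed oligodendrocyte marker levels of 12772 and 13779 FPKM, against 2363 to 7248 in the other 14. The summed level of 9 striatal markers was 1361 FPKM in HF 8 and 749 to 1030 in HF_PBS 2, 3 and 4, against 219 to 399 in the other 12. Summed excitatory neuron markers were 2468 to 2644 FPKM in chow, 1710 to 3362 in HF, 694 to 1755 in HF_PBS and 1530 to 1896 in HF_5AzaD. In bulk tissue, fewer cells of a type and less RNA per cell cannot be told apart. Depth was estimated from the spacing of low values, with chow 2 assumed the deepest library, so no estimate could exceed 100%. Relative to chow 2 it was 38.7% to 100% in chow, 30.1% to 36.3% in HF, 32.5% to 42.6% in HF_PBS and 34.6% to 44.4% in HF_5AzaD. The absolute depth is unknown.

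In level the members were led by carriers of adenine nucleotides and phosphate, 9 genes that made up 76% of the members' summed FPKM. At the top stood ADP/ATP exchange (Slc25a4, mean 561 FPKM, and Slc25a5, 83.6 FPKM), ATP-Mg/phosphate exchange (Slc25a23, 310 FPKM) and phosphate import (Slc25a3, 287 FPKM). Carriers of di- and tricarboxylates held 6.57%, led by the oxoglutarate carrier Slc25a11 at 77.6 FPKM. Carriers of amino acids and glutathione held 6.54%, and those of nucleotides and cofactors 3.36%. The uncoupling protein group held 2.42%, the iron carriers 1.96%, the outer membrane protein Slc25a46 1.91% and the acylcarnitine carrier Slc25a20 0.87%. In all, 3 members lay at or above 100 FPKM, 18 between 10 and 100, 12 between 1 and 10, and 6 below 1.

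**Figure D1:**
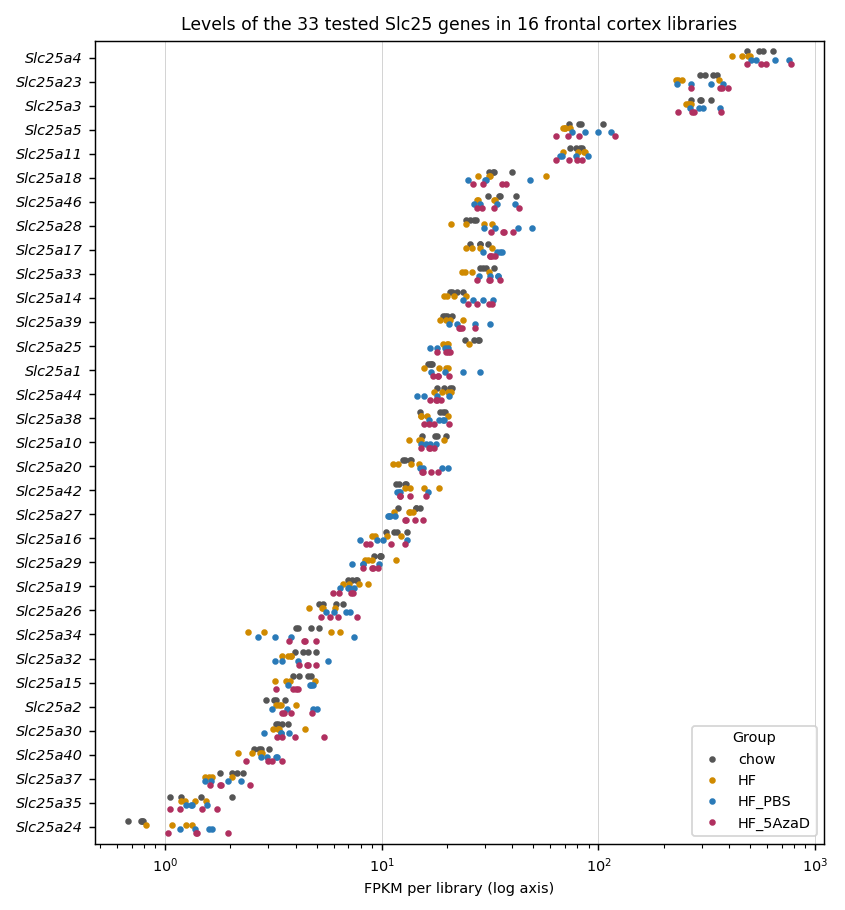
FPKM of the 33 tested Slc25 genes in each library by group on a log axis, ordered by the mean over all 16 libraries. Slc25a4 has the highest mean (561 FPKM), and the 6 genes below the minimum of 1 FPKM for testing are not shown.

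The 6 members below that minimum were not tested. Slc25a45 had a mean of 0.587 FPKM, Slc25a21, which carries oxoadipate, 0.0720, and Slc25a47 0.0503. Slc25a41 stood at 0.0340 FPKM and Slc25a54 at 0.00167 FPKM, above 0 in 1 library. Slc25a22, a mitochondrial glutamate carrier, was listed between 0 and 0.200 FPKM in the 16 libraries, and its lesser locus had a mean of 0.0632 FPKM. The low value is that of the annotated loci, and why it is low was not tested. Slc25a2, an ornithine carrier at 3.70 FPKM, shares 1 merged locus with Taf7, so its level cannot be told from that of Taf7. Slc25a12 was not analysed here. A pair of carriers stands in the table under older symbols and were not members: Mcart1l, now Slc25a53, with a mean of 51.1 FPKM, and Mcart1, now Slc25a51, with 0.00256 FPKM. Relatives under other symbols were not members either: Mtch1 (321 FPKM), Mtch2 (42.4), Ucp2 (18.1), Ucp3 (0.0928) and Ucp1 (0.00261). The ranks and shares given above leave all of these genes out.

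The high fat diet without injection gave no called member. Against chow, 0 of 33 members passed the test (limma, Benjamini-Hochberg adjusted p under 0.05), as did 0% of all loci. At an unadjusted p under 0.05 there were 2 members and 1020 of all loci. The median member difference was -0.10 on the log2(FPKM + 0.5) scale, against -0.01 for all loci. A negative difference was found for 23 of 33 members and for 7669 of 14824 loci, and these counts were not compared by a test. Slc25a25, a calcium-regulated ATP-Mg/phosphate carrier, had 26.7 ± 1.84 FPKM in chow against 21.1 ± 2.71 in HF (mean ± SD, n = 4 each), with a log2 difference of -0.33 (SE 0.09, limma adjusted p = 0.682). Slc25a33, a pyrimidine nucleotide carrier, had 30.2 ± 2.00 FPKM in chow against 26.3 ± 3.48 in HF, with a log2 difference of -0.20 (limma adjusted p = 0.725). In the other direction stood Slc25a24, a relative of Slc25a25, at 0.758 ± 0.0546 and 1.12 ± 0.227 FPKM (log2 difference 0.35, limma adjusted p = 0.706), and Slc25a42, a coenzyme A carrier, at 12.3 ± 0.654 and 15.1 ± 2.50 FPKM (0.27, limma adjusted p = 0.716). These 4 are the members of lowest p in each direction and did not pass the test.

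Between the injected groups, which differ in 5-AzaD, 0 of 33 members passed the test, again with 0% of all loci called. There was 1 member at an unadjusted p under 0.05, and 1100 of all loci. That member was Slc25a27 (UCP4), an uncoupling protein relative found mainly in brain. Its values were 10.7, 10.9, 11.6 and 10.8 FPKM in HF_PBS and 12.8, 15.6, 12.9 and 14.2 FPKM in HF_5AzaD. The groups did not overlap, which held for 2.40% of all loci in either direction, and the log2 difference was 0.32 (95% interval 0.12 to 0.51, limma adjusted p = 0.586). Slc25a30, its relative, was 3.37 ± 0.358 FPKM with PBS and 4.05 ± 0.966 with 5-AzaD (log2 difference 0.22, limma adjusted p = 0.789). The citrate carrier Slc25a1 had a log2 difference of -0.23 (limma adjusted p = 0.751) and the ornithine carrier Slc25a15 one of -0.20 (limma adjusted p = 0.779).

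Calls appeared where an injected group was compared with an uninjected one. In HF_PBS against HF, 4 of 33 members were called higher and 0 lower, 12.1% of members, against 23.9% of all loci (10.7% higher and 13.2% lower). In HF_5AzaD against HF 2 were higher and 0 lower, 6.06% of members, against 14.2% of all loci (6.61% higher and 7.64% lower). In HF_PBS against chow 5 were higher and 2 lower, 21.2%, against 28.2% of all loci (12.4% higher and 15.7% lower). In HF_5AzaD against chow 3 were higher and 1 lower, 12.1%, against 16.3% of all loci (7.18% higher and 9.11% lower). The higher calls against chow include Slc25a24, whose chow mean of 0.758 FPKM lay below the minimum of 1 FPKM. In both directions together the members' shares were a few genes below those of all loci, and higher calls alone (12.1%, 6.06%, 15.2% and 9.09% of members in the order given) lay near the shares of all loci. These differences were not tested. The comparisons share groups, and injection cannot be told apart from anything else that separates injected from uninjected animals.

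These counts, and those of all loci, depend on single libraries. In HF_PBS against HF the count was 0 without HF 6 or HF_PBS 4 (1633 and 1683 of all loci, against 3536 with every library) and 2 without HF_PBS 3 (2648 of all loci). In HF_5AzaD against HF it was 0 without HF 6, HF_5AzaD 3 or HF_5AzaD 7 (395, 1174 and 400 of all loci, against 2112), 1 without HF 8, HF_5AzaD 5, HF_5AzaD 6 or any 1 chow library (1273 to 2306 of all loci), and 5 without HF 7 (2048 of all loci). In HF_PBS against chow it was 2 without HF_PBS 4 (2013 of all loci, against 4173), 3 without chow 3 or chow 4 (2706 and 2630 of all loci), and 4 without chow 2 or HF_PBS 3 (2865 and 2828 of all loci). In HF_5AzaD against chow it was 1 without HF_5AzaD 7 (399 of all loci, against 2414) or any 1 chow library (697 to 1291 of all loci). Without HF 8, HF_PBS 3 and HF_PBS 4, a set chosen after seeing the marker levels, both HF_PBS comparisons held 0 called members (7 of all loci against HF and 3 against chow), with 2 HF_PBS libraries left. In that setting HF_5AzaD against HF held 2 (1887 of all loci) and HF_5AzaD against chow 5 (2917 of all loci).

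The mean of both injected groups less the mean of both uninjected groups, taken from the same fit, sums up the 4 comparisons. It is not a factor of the design, since 1 uninjected group ate chow. Of 33 members 6 were higher and 1 was lower, 21.2%, against 40.8% of all loci (19.7% higher and 21% lower). The higher ones were Slc25a14, Slc25a20, Slc25a28, Slc25a24, Slc25a17 and Slc25a39, and the lower one was Slc25a25. All 7 remained called when each of the 16 libraries was left out in turn. Slc25a24 averaged 0.938 FPKM in the uninjected libraries, below the minimum of 1 FPKM, and 1.44 FPKM in the injected ones. It passed that minimum only through libraries where it is high, so its call is no support for a difference of the family. The median member difference was 0.06 on the log2 scale, against 0.02 for all loci.

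Members whose groups did not overlap were also counted. In HF against chow 1 member lay wholly higher (Slc25a24) and 1 wholly lower (Slc25a32, a folate and FAD carrier), beside 2.98% and 3.97% of all loci (6.95% together). In HF_5AzaD against HF_PBS it was 1 higher (Slc25a27) and 0 lower, beside 1.46% and 0.938%. In HF_PBS against HF 3 were higher (Slc25a4, Slc25a5 and Slc25a20) and 0 lower, beside 9.28% and 11.9% (21.2% together). In HF_5AzaD against HF 3 were higher (Slc25a14, Slc25a20 and Slc25a32) and 0 lower, beside 8.97% and 8.78% (17.7% together). In HF_PBS against chow 4 were higher and 2 lower, beside 14.2% and 19.1% (33.3% together). In HF_5AzaD against chow 7 were higher and 1 lower, beside 12.3% and 14.8% (27.2% together). Over all 8 injected and 8 uninjected libraries 1 member was higher and 0 lower, beside 2.92% and 5.05% of all loci (7.97% together).

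**Figure D2:**
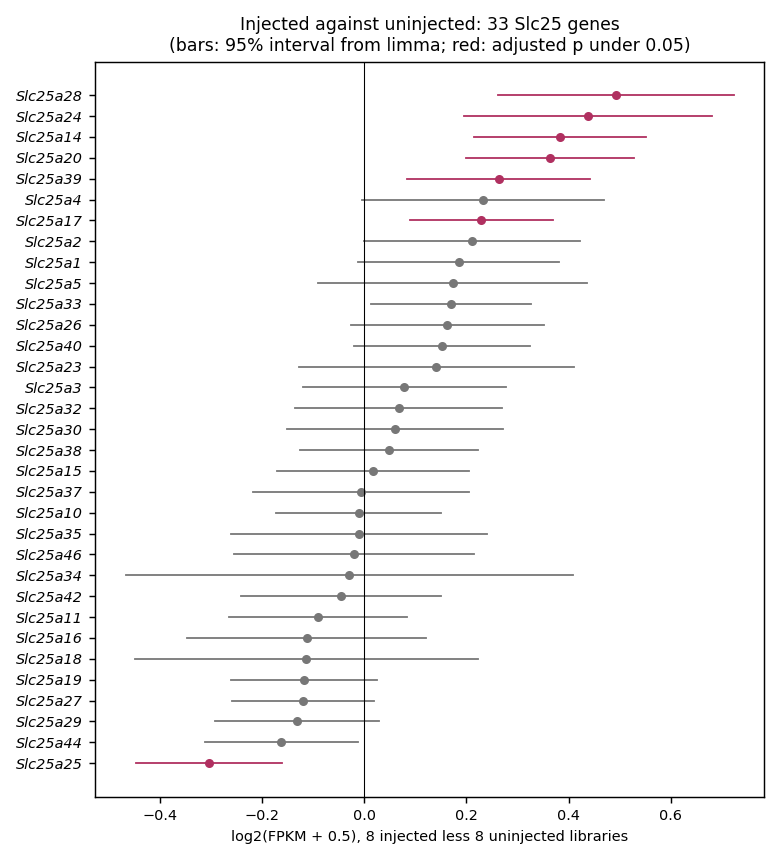
Difference of the 33 tested Slc25 genes between the 8 injected and the 8 uninjected libraries on the log2(FPKM + 0.5) scale, with 95% intervals from limma. Slc25a28 has the highest difference (0.49) and Slc25a25 the lowest (-0.30).

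The promoters of the 5 members called at least 2 times among the 4 comparisons are shown because these members carry the differences described next. Each is the 250 bases before the RefSeq start on build GRCr8 (the files use rn5), 5′ to 3′ on the gene's strand, with CpG pairs, the bases that DNA methyltransferases modify, in capitals. Methylation was not analysed here.
Slc25a14, chrX:132685359-132685608, plus strand: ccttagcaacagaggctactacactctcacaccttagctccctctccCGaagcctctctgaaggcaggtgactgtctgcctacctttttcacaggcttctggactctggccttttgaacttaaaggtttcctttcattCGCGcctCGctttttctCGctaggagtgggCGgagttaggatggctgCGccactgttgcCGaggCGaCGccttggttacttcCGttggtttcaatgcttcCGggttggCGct
Slc25a20, chr8:118243323-118243572, plus strand: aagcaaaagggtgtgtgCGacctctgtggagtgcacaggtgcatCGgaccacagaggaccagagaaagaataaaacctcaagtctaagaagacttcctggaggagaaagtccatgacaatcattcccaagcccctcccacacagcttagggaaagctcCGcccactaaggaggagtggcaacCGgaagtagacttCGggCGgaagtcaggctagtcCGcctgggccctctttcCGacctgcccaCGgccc
Slc25a28, chr1:252491343-252491592, minus strand: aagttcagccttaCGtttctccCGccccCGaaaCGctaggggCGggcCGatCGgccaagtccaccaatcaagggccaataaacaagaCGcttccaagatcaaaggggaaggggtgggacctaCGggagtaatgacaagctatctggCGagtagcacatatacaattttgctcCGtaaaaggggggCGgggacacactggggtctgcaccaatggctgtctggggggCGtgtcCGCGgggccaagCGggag
Slc25a24, chr2:199449175-199449424, plus strand: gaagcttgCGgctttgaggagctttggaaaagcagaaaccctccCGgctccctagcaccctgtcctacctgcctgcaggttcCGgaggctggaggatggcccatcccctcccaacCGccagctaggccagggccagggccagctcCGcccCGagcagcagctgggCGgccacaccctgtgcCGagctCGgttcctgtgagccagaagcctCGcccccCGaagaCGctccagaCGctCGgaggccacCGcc
Slc25a25, chr3:36116582-36116831, minus strand: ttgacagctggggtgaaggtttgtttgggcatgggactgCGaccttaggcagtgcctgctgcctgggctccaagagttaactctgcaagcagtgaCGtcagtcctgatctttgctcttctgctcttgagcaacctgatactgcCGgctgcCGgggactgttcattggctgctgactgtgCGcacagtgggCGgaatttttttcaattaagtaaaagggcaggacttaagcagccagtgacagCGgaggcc

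These windows held 13, 9, 16, 15 and 7 CpG pairs in the order printed. Over the 27 tested members found in the promoter table the median was 16 pairs, from 1 in Slc25a18 to 40 in Slc25a40, and over all 33469 promoters it was 5. The core TGCGCA of the NRF1 motif, searched on both strands, was in the windows of Slc25a3 and Slc25a25 among 33 members found, 6.06%, and in 6.14% of all promoters. The core CCGGAA of ETS factors, on both strands, was in 10 of 33 members, 30.3%, and in 12.6% of all promoters. Among the 5 printed it was in Slc25a14, Slc25a20 and Slc25a24. Both cores hold a CpG pair, and the part of CpG content in these shares was not tested. The 6 members found that lay under the minimum of 1 FPKM had a median of 7 CpG pairs.

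Slc25a14 (UCP5 or BMCP1), a member of the uncoupling protein group abundant in brain, rose in all 4 comparisons of an injected with an uninjected group. It was 22.3, 23.8, 20.7 and 21.1 FPKM in chow and 24.5, 20.004, 19.3 and 21.5 FPKM in HF. With injections it was 32.6, 26.4, 23.8 and 29.2 FPKM in HF_PBS and 32.1, 27.4, 24.9 and 31.3 FPKM in HF_5AzaD. The lowest injected library, HF_PBS 3, lay below the highest HF library, and all others lay above every uninjected one. Against HF the log2 difference was 0.38 with PBS (SE 0.11, limma adjusted p = 0.0246) and 0.43 with 5-AzaD (limma adjusted p = 0.0238). Against chow it was 0.34 with PBS (limma adjusted p = 0.0356) and 0.39 with 5-AzaD (limma adjusted p = 0.0337). Injected against uninjected, it was 31.6% higher (log2 difference 0.38, SE 0.08, limma adjusted p = 0.00198). It was the 1 member called in all 4, as were 7.21% of all loci in 1 direction. Each of its 4 calls was lost without some single library, with adjusted p of 0.0546 to 0.112: against HF without HF 6, HF 7, HF_PBS 1 or HF_PBS 4 for PBS and without HF 6, HF_5AzaD 3 or HF_5AzaD 7 for 5-AzaD, and against chow without chow 1, chow 3, chow 4, HF_PBS 1 or HF_PBS 4 for PBS and without any 1 chow library, HF_5AzaD 3 or HF_5AzaD 7 for 5-AzaD. The call of injected against uninjected held without HF 8, HF_PBS 3 and HF_PBS 4 (0.42, limma adjusted p = 0.00786), as did both 5-AzaD calls, while those of HF_PBS against HF (0.46, limma adjusted p = 0.104) and chow (0.41, limma adjusted p = 0.114) were lost.

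Slc25a20, the carnitine-acylcarnitine carrier that brings fatty acids into the matrix, was 13.7, 13.5, 12.8 and 12.6 FPKM in chow and 11.9, 11.2, 14.8 and 13.6 FPKM in HF. It was 15.02, 15.4, 20.2 and 18.999 FPKM in HF_PBS and 15.4, 16.8, 15.5 and 18.2 FPKM in HF_5AzaD. Its 2 highest values were those of HF_PBS 3 and HF_PBS 4, the libraries with the most oligodendrocyte marker RNA, whose part in the result was not tested. It was the 1 member whose 8 injected libraries all lay above all 8 uninjected ones, as did 2.92% of all loci. It rose in HF_PBS against HF (log2 difference 0.42, limma adjusted p = 0.0153), in HF_PBS against chow (0.38, limma adjusted p = 0.0199) and in HF_5AzaD against HF (0.35, limma adjusted p = 0.0469). In HF_5AzaD against chow the difference was 0.31 (limma adjusted p = 0.0614). The call against HF was lost without HF 6 or HF_PBS 4 for PBS (adjusted p of 0.0552 and 0.0587 from limma), and the call against chow without chow 3, chow 4, HF_PBS 3 or HF_PBS 4 (0.0504 to 0.0678). The call of HF_5AzaD against HF was kept only without HF 7 or any 1 HF_PBS library and otherwise had limma adjusted p of 0.0513 to 0.155. Injected against uninjected it was 30.1% higher (limma adjusted p = 0.00235), and without HF 8, HF_PBS 3 and HF_PBS 4 the log2 difference was 0.29 (limma adjusted p = 0.0177). In that setting HF_PBS was 0.27 above HF (limma adjusted p = 0.222) and 0.21 above chow (limma adjusted p = 0.303), neither past the test.

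Slc25a28 (mitoferrin 2), which imports iron for heme and iron-sulfur clusters, was 26.6, 24.5, 27.3 and 25.5 FPKM in chow and 32.1, 24.5, 29.6 and 20.8 FPKM in HF. It was 29.7, 33.4, 42.6 and 49.2 FPKM in HF_PBS and 32.1, 36.3, 36.5 and 40.2 FPKM in HF_5AzaD. The highest values were those of HF_PBS 3 and HF_PBS 4, the libraries with the most oligodendrocyte marker RNA. Those markers summed to 2363 to 7248 FPKM in HF_5AzaD and 3665 to 5628 in chow, and their part in the Slc25a28 values was not tested. All 4 HF_5AzaD libraries lay above chow, as for 12.3% of all loci. It rose in HF_PBS against HF (log2 difference 0.52, limma adjusted p = 0.0261), in HF_PBS against chow (0.54, limma adjusted p = 0.0196) and in HF_5AzaD against chow (0.47, limma adjusted p = 0.0496). In HF_5AzaD against HF the difference was 0.45 (limma adjusted p = 0.0627). The call against HF was lost without HF 6, HF 8, HF_PBS 3 or HF_PBS 4 (limma adjusted p of 0.0666 to 0.0931), and the HF_PBS call against chow without chow 2, HF_PBS 3 or HF_PBS 4 (0.0501 to 0.0710). The call of HF_5AzaD against chow was lost in 11 of 16 rounds, any 1 chow library included (limma adjusted p of 0.0506 to 0.149). Without HF 8, HF_PBS 3 and HF_PBS 4 the HF_PBS difference was 0.14 against HF and 0.27 against chow, while that of HF_5AzaD against chow was 0.47 (limma adjusted p = 0.0136). The other iron carrier, Slc25a37 (mitoferrin 1), best known from red cell precursors, was 2.28, 2.03, 2.14 and 1.79 FPKM in chow, 1.64, 1.60, 2.04 and 1.53 in HF, 1.62, 1.95, 2.24 and 1.53 in HF_PBS and 1.80, 1.61, 2.46 and 1.78 in HF_5AzaD. Its groups overlapped throughout and it was called in none.

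The ATP-Mg/phosphate carriers Slc25a25 and Slc25a24 moved in opposite directions against chow. Both are regulated by calcium and set the matrix content of adenine nucleotides. Slc25a25 was 26.6, 24.1, 28.1 and 27.9 FPKM in chow, 19.1, 20.3, 19.99 and 25.1 in HF, 19.6, 17.9, 20.2 and 16.7 in HF_PBS and 20.1, 17.97, 20.7 and 19.7 in HF_5AzaD. All 8 injected libraries lay below all 4 chow libraries, and HF 8 was the 1 HF library above the lowest chow value. By single group, 19.1% (HF_PBS) and 14.8% (HF_5AzaD) of all loci lay wholly below chow, and the share for both groups together was not computed. Slc25a25 fell in HF_PBS against chow (log2 difference -0.51, limma adjusted p = 0.00376) and in HF_5AzaD against chow (-0.43, limma adjusted p = 0.0139), and both calls held whichever single library was left out. Against HF the differences were -0.18 (limma adjusted p = 0.189) and -0.10 (limma adjusted p = 0.501). Without HF 8, HF_PBS 3 and HF_PBS 4 the difference of HF_PBS against chow was -0.50 (limma adjusted p = 0.0516).

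Slc25a24 was near the floor and passed the minimum of 1 FPKM only through the high fat groups, its chow mean being 0.758 FPKM, so its calls against chow are no support for a difference of the family. It stood at 0.785, 0.793, 0.677 and 0.778 FPKM in chow, 1.33, 0.816, 1.08 and 1.25 in HF, 1.17, 1.59, 1.65 and 1.38 in HF_PBS and 1.40, 1.39, 1.03 and 1.94 in HF_5AzaD. All 12 libraries on the high fat diet lay above all 4 chow libraries. The share of all loci for this split was not computed. By single group, 2.98% (HF), 14.2% (HF_PBS) and 12.3% (HF_5AzaD) of all loci lay wholly above chow. Slc25a24 rose in HF_PBS against chow (log2 difference 0.62, limma adjusted p = 0.0131) and in HF_5AzaD against chow (0.61, limma adjusted p = 0.0261). The mean of HF_PBS was 90.8% above chow in FPKM, more than the log2(FPKM + 0.5) difference shows for so low a gene. The PBS call held whichever library was left out. The 5-AzaD call was lost without HF_5AzaD 7 or any 1 chow library (limma adjusted p of up to 0.0947). Against HF the differences were 0.27 and 0.25, with limma adjusted p of 0.232 and 0.292.

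**Figure D3:**
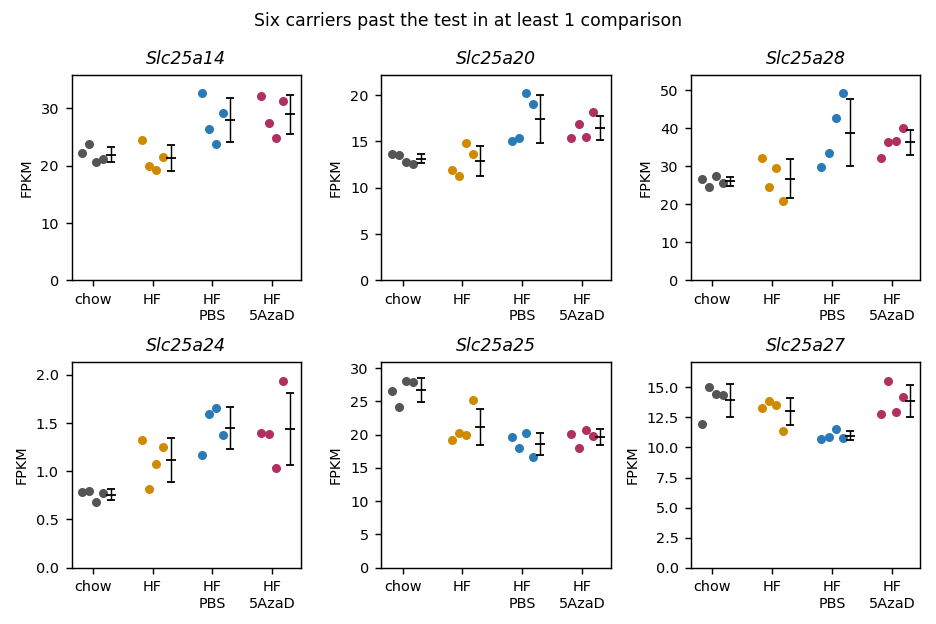
FPKM of 6 Slc25 genes in each of the 16 libraries by group, with mean and SD of 4 libraries as bars. Slc25a20 lies above 15 FPKM in all injected libraries and below it in all uninjected ones, while Slc25a25 is highest in chow.

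The remaining calls were single ones. Slc25a17, a peroxisomal carrier of cofactor nucleotides, was 30.8, 28.4, 28.5 and 25.6 FPKM in chow, 24.4, 26.1, 32.2 and 28.4 in HF, 34.004, 29.4, 35.95 and 35.1 in HF_PBS and 33.4, 32.2, 31.6 and 31.7 in HF_5AzaD. It rose in HF_PBS against HF (log2 difference 0.28, limma adjusted p = 0.0435), a call lost in 11 of 16 rounds (limma adjusted p of 0.0505 to 0.124). Slc25a1, which exports citrate for lipid synthesis, was 16.99, 16.3, 16.8 and 16.7 FPKM in chow, 18.3, 15.6, 20.2 and 19.9 in HF, 19.6, 16.9, 28.3 and 23.8 in HF_PBS and 18.1, 17.2, 18.2 and 20.4 in HF_5AzaD. Its 2 highest values were those of HF_PBS 3 and HF_PBS 4. It rose in HF_PBS against chow (0.37, limma adjusted p = 0.0468), a call lost in 12 of 16 rounds (limma adjusted p of 0.0507 to 0.139), with a difference of 0.12 without HF 8, HF_PBS 3 and HF_PBS 4.

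Slc25a27 was 11.9, 15.04, 14.4 and 14.4 FPKM in chow and 13.3, 13.9, 13.5 and 11.3 in HF. The HF_PBS values given above lay below all chow libraries, as for 19.1% of all loci. Slc25a27 fell in HF_PBS against chow (log2 difference -0.33, limma adjusted p = 0.0195). That call was lost without chow 2, chow 3, chow 4 or HF_PBS 4 (limma adjusted p of 0.0516 to 0.0585). In HF_5AzaD against chow the difference was -0.01 (limma adjusted p = 0.960). Slc25a27 and Slc25a14 belong to the same group of uncoupling protein relatives and had differences of opposite sign in HF_PBS. Slc25a39, needed for mitochondrial glutathione import, was called only in injected against uninjected (0.26, limma adjusted p = 0.0222). Its values were 19.2 to 21.1 FPKM in chow, 18.6 to 23.6 in HF, 20.5 to 31.5 in HF_PBS and 22.6 to 27.04 in HF_5AzaD, with its maximum in HF_PBS 3. Without HF 8, HF_PBS 3 and HF_PBS 4 its difference was 0.14 (limma adjusted p = 0.156), and that of Slc25a17 was 0.20 (limma adjusted p = 0.0817).

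The most abundant members were not called in any comparison. Slc25a4 (ANT1), the main ADP/ATP exchanger of heart, muscle and brain, was 638, 548, 576 and 487 FPKM in chow, 499, 461, 490 and 415 in HF, 757, 533, 506 and 656 in HF_PBS and 771, 486, 562 and 592 in HF_5AzaD. All HF_PBS libraries lay above all HF libraries, as for 9.28% of all loci, with a log2 difference of 0.38 (limma adjusted p = 0.0908). Slc25a5 (ANT2), the exchanger of dividing cells, was 105, 80.98, 83.1 and 73.1 FPKM in chow, 73.5, 69.7, 68.6 and 70.1 in HF, 114, 86.5, 75.5 and 99.4 in HF_PBS and 120, 63.6, 81.4 and 72.6 in HF_5AzaD. Its HF_PBS and HF libraries did not overlap either (0.40, limma adjusted p = 0.110). The ratio of Slc25a4 to Slc25a5 was 6.61 ± 0.370 in chow, 6.61 ± 0.511 in HF, 6.52 ± 0.245 in HF_PBS and 7.29 ± 0.757 in HF_5AzaD.

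Slc25a3, which imports phosphate for ATP synthesis, was 329, 298, 293 and 268 FPKM in chow, 268, 262, 259 and 252 in HF, 364, 290, 263 and 304 in HF_PBS and 369, 233, 276 and 271 in HF_5AzaD. Slc25a23, the most abundant ATP-Mg/phosphate carrier here, was 296 to 350 FPKM in chow, 228 to 359 in HF, 231 to 375 in HF_PBS and 267 to 396 in HF_5AzaD. Slc25a11 was 78.4, 81.8, 73.8 and 84.3 FPKM in chow, 80.5, 86.5, 68.3 and 85.6 in HF, 89.4, 79.1, 66.3 and 67.9 in HF_PBS and 84.2, 79.4, 63.4 and 72.8 in HF_5AzaD. The groups of these 3 carriers overlapped. Slc25a46, an outer membrane protein that acts in mitochondrial shape, was 41.6, 34.7, 35.2 and 31.04 FPKM in chow, 33.3, 33.02, 27.8 and 27.4 in HF, 41.3, 33.9, 26.5 and 28.3 in HF_PBS and 42.8, 29.1, 32.9 and 27.4 in HF_5AzaD. Single libraries stood out across these genes: HF_PBS 1 and HF_5AzaD 3 held the highest value of their group for Slc25a4, Slc25a5, Slc25a3, Slc25a11 and Slc25a46. For Slc25a23 these libraries held the lowest value of their group (231 and 267 FPKM). The group's maximum was held by chow 1 for 20 of 33 members (31.3% of all loci), by HF 7 for 15 (27.7%), by HF_PBS 3 for 15 (26.2%), by HF_5AzaD 3 for 14 (27.2%) and by HF_PBS 1 for 13 (27.1%). The group's minimum was held by chow 4 for 18 (35.8%), by HF 8 for 13 (27.5%), by HF_PBS 1 for 12 (25.2%) and by HF_5AzaD 5 for 12 (28%).

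**Figure D4:**
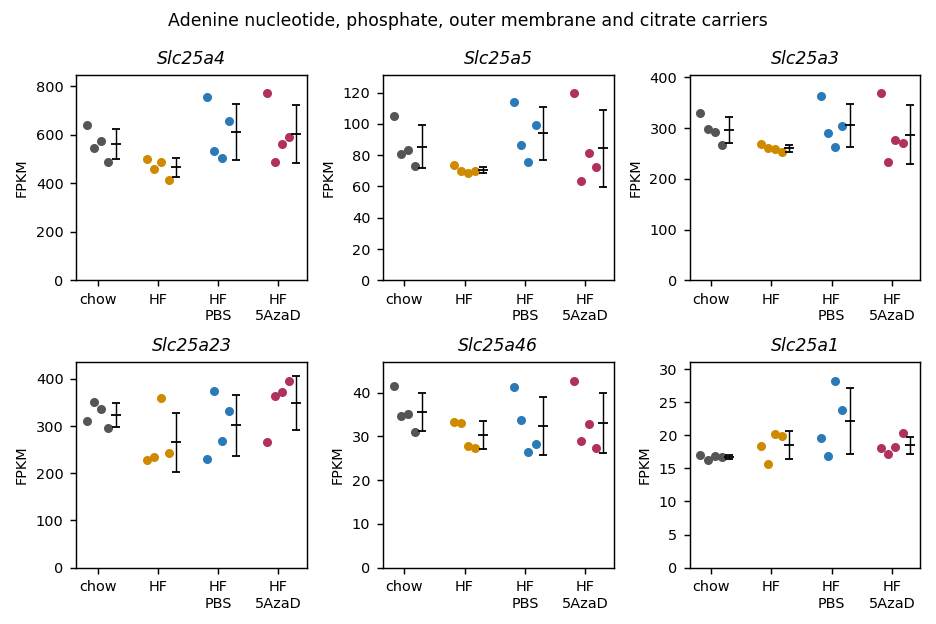
FPKM of 6 Slc25 genes in each library by group, with mean and SD of 4 libraries. The values of Slc25a4 run from 415 FPKM in HF 8 to 771 FPKM in HF_5AzaD 3, with overlap between most groups.

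Slc25a18, a glutamate carrier found mainly in astrocytes, was 40.01, 32.7, 33.01 and 31.4 FPKM in chow, 31.2, 31.6, 57.4 and 27.9 in HF, 25.04, 30.3, 48.2 and 29.96 in HF_PBS and 29.3, 35.9, 37.4 and 26.2 in HF_5AzaD. Its 2 highest libraries were HF 7 and HF_PBS 3. The 7 astrocyte markers summed to 2641 FPKM in HF 7 and 2908 FPKM in HF_PBS 3, and to 2672 in HF_PBS 4, where Slc25a18 was 29.96 FPKM. Their part in these values was not tested. Slc25a34 had its maximum in HF_PBS 3 (7.45 FPKM) and its next highest value in HF 7 (6.42 FPKM). Slc25a18 and Slc25a34 were called in no comparison.

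The carriers of nucleotides and cofactors, 5 of them tested, had 0 calls by limma in every comparison. At an unadjusted p under 0.05 there was 1 of 5 in HF_PBS against HF and 1 of 5 in HF_5AzaD against HF, Slc25a33 in both. The closest was Slc25a33 in HF_PBS against HF (log2 difference 0.29, limma adjusted p = 0.0566). Slc25a26, which imports S-adenosylmethionine, the methyl donor of methyltransferases, has 2 loci. Its main locus, at 5.95 FPKM, had log2 differences of 0.09 to 0.24 in the 4 comparisons and was not called. Its lesser locus, at 2.73 FPKM, was 2.88, 3.14, 3.21 and 3.62 FPKM in chow, 2.56, 4.10, 3.81 and 3.02 in HF, 1.69, 2.43, 2.92 and 1.68 in HF_PBS and 2.00, 2.18, 2.45 and 2.01 in HF_5AzaD. It fell in HF_PBS against HF (-0.54, limma adjusted p = 0.0283), in HF_5AzaD against HF (-0.53, limma adjusted p = 0.0445) and in HF_PBS against chow (-0.50, limma adjusted p = 0.0354). In HF_5AzaD against chow the difference was -0.48 (limma adjusted p = 0.0560). The loci of 1 symbol thus had opposite signs, and the choice of the locus with the highest mean decides what is reported for Slc25a26.

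Comparisons that share no library allow the members' values to be set side by side. In HF_PBS against HF and HF_5AzaD against chow, Slc25a28 and Slc25a14 were called in both, 2 of the 4 called in the first and 2 of the 4 in the second. Over all loci 10.2% were called in both in 1 direction. In HF_PBS against chow and HF_5AzaD against HF, Slc25a14 and Slc25a20 were called in both, 2 of 7 and 2 of 2, beside 9.57% of all loci. The difference had the same sign for 23 of 33 members in the first pair and 22 of 33 in the second, and for 78.4% and 76.3% of all loci.

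**Figure D5:**
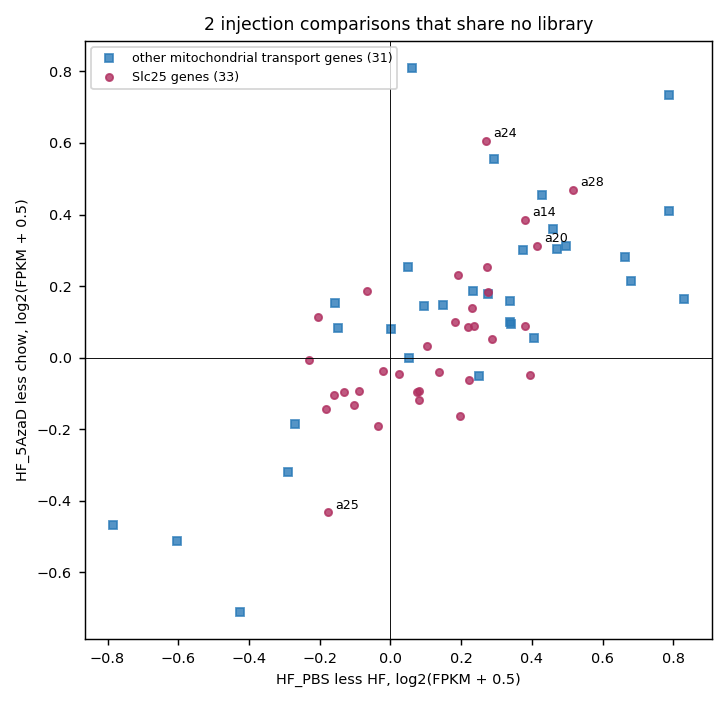
Log2(FPKM + 0.5) differences of the 33 tested Slc25 genes and of 31 other mitochondrial transport genes in HF_PBS less HF and in HF_5AzaD less chow, which share no library. The 31 include Mcart1l (now Slc25a53) and the relatives Ucp2, Mtch1 and Mtch2. The sign was the same for 23 of 33 Slc25 genes.

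Other genes of mitochondrial transport were followed as a list of 31 tested genes. This list includes Mcart1l (now Slc25a53) and the relatives Ucp2, Mtch1 and Mtch2, so it is not wholly separate from the Slc25 family. In HF_PBS against HF 12 were higher and 1 lower (41.9% called, against 23.9% of all loci), and in HF_5AzaD against HF 5 and 1 (19.4%, against 14.2%). In HF_PBS against chow 8 were higher and 2 lower (32.3%, against 28.2%), and in HF_5AzaD against chow 4 and 1 (16.1%, against 16.3%), while HF against chow and HF_5AzaD against HF_PBS gave 0 by limma (4 and 1 at an unadjusted p under 0.05). The list's median log2 differences in those first 4 were 0.28, 0.26, 0.19 and 0.16, against 0.01, 0.02, 0.01 and 0.00 for all loci. Of 12 genes of carrier import, 7 rose in HF_PBS against HF (58.3%, with 10.7% of all loci higher), 2 in HF_5AzaD against HF (16.7%, with 6.61%), 5 in HF_PBS against chow (41.7%, with 12.4%) and 1 in HF_5AzaD against chow (8.33%, with 7.18%). Among those of the first comparison were Tomm20, the receptor of the outer membrane, from 102 to 142 FPKM (limma adjusted p = 0.0139), and Timm8a1, a chaperone of carrier precursors, from 12.8 to 22.9 FPKM (limma adjusted p = 0.00284). Both subunits of the pyruvate carrier rose there, Mpc1 from 94.1 to 152 FPKM (limma adjusted p = 0.0122) and Mpc2 from 122 to 163 FPKM (limma adjusted p = 0.0268). Against chow neither was called, with log2 differences of 0.21 and 0.20 in HF_PBS (limma adjusted p of 0.348 and 0.223). Letm1, an inner membrane ion exchanger, fell in all 4, from 34.2 to 22.2 FPKM in HF_PBS against HF (limma adjusted p = 0.00464). Tomm22, 1 of the 7 import genes called in HF_PBS against HF, shares a merged locus with Cby1. Calls of this list and of the enzymes below were not followed with libraries left out. Over all loci, those of HF_PBS against HF fell from 3536 to 7 without HF 8, HF_PBS 3 and HF_PBS 4.

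Of 19 tested enzymes that act beside the carriers, 1 was higher and 2 were lower in HF_PBS against HF (15.8% called, against 23.9% of all loci) and 1 and 2 in HF_5AzaD against HF (15.8%, against 14.2%). Against chow it was 1 and 1 in HF_PBS (10.5%, against 28.2%) and 1 and 3 in HF_5AzaD (21.1%, against 16.3%). The higher one in each was Cpt1c, the brain form of carnitine palmitoyltransferase, at 32.4 FPKM in HF and 45.4 FPKM in HF_PBS (limma adjusted p = 0.0192). The 6 enzymes of the malate-aspartate and glycerol phosphate shuttles had 0 calls by limma in these comparisons, with 0 at an unadjusted p under 0.05, and 0 calls were also found for Slc25a11. Single members of these lists were chosen for mention after their values were seen.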

How the data were processed

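RNA of 16 rat frontal cortex libraries was sequenced after poly-A selection, per the labels' protocols. The authors deposited FPKM per merged locus with a status per value. Cuffdiff, Cufflinks, Bowtie, Bowtie2, TopHat, TopHat2 and the build rn5 are named, without versions, per the submitters' processing notes. No source used here gives the strand, so reads of overlapping antisense genes cannot be told apart. The table held 0 columns from outside the series. Groups follow the treatment label, because the design text and the titles use the letters HFD for different groups.

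Loci with status OK throughout and a mean of at least 1 FPKM (14824) were fitted as log2(FPKM + 0.5) with limma 3.58.1 in R 4.3.3, with 1 mean per group, 12 residual degrees of freedom and a mean-dependent variance prior. The Benjamini-Hochberg adjustment ran over all of them, and an adjusted p under 0.05 is a call. The code was tested on simulated data. Python 3.11.15 with pandas 2.3.3 and matplotlib 3.10.9 was used for promoters, depth and plots.

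Members and lists were chosen with earlier results of these data known. Per-library values are given for up to 4 called members per direction and comparison (or the 2 of lowest p, where none was called) and for a set list of carriers. Whether replicate numbers pair libraries is not known, and the main fit did not use them. After removal of group means, same-numbered libraries correlated at -0.164 to 0.0236 between chow and HF_PBS. Between HF and HF_5AzaD they correlated at -0.107 to 0.0641. These correlations cannot decide the question, since other differences between libraries also enter them. Alternatives were other pseudocounts, filters, scalings and variance priors, only the groups compared, summed loci, the replicate number as a block, and each library left out.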

Additional observations from a re-analysis of the deposited data

Results flagged for a closer look

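Within groups of 4 libraries, a single value stood far from the other 3 in 8 of 132 member and group combinations, where chance gives about 6.6 (1 in 20). Slc25a23 was 359 FPKM in HF 7 against 228 to 243 in the other HF libraries. Slc25a18 was 57.4 FPKM in the same library against 27.9 to 31.6. In HF_PBS 3, Slc25a42 was 16.3 FPKM against 11.8 to 12.1 and Slc25a27 was 11.6 FPKM against 10.7 to 10.9. Slc25a15 was 3.70 FPKM in HF_PBS 2 against 4.68 to 4.83. Slc25a30 was 4.42 FPKM in HF 8 against 3.15 to 3.34. Slc25a39 was 27 FPKM in HF_5AzaD 7 against 22.6 to 23.4. Slc25a24 was 0.677 FPKM in chow 3 against 0.778 to 0.793.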

How the results depend on the processing

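The count of called members was 0 for the diet alone and for 5-AzaD against PBS at every alternative run. In HF_5AzaD against HF (2 as reported) it was 1 with median ratio scaling, without the filter and without the trend in the variance prior, and 0 with only the groups compared (27 of all loci called, against 2112). In HF_PBS against HF (4) it was 0 with only the groups compared (1433 of all loci, against 3536). With the replicate number as a block, the count in HF_PBS against chow was 1 (7 without it), with 2331 of all loci against 4173. In HF_5AzaD against HF the count was 0 (0 of all loci), in a fit that left out HF 8 and HF_5AzaD 3, whose numbers occur in 1 group only. Both block fits used only the groups compared. Without the block, such fits called 4243 of all loci in HF_PBS against chow and 27 in HF_5AzaD against HF. The block's own part in the 0 was not tested. Whether the numbers pair the libraries is not known. Without HF 8, HF_PBS 3 and HF_PBS 4, added after seeing the data, HF_PBS against HF and HF_PBS against chow each held 0 (7 and 3 of all loci), with fewer samples. Leaving out 1 library gave 0 to 6 in HF_PBS against HF, 0 to 5 in HF_5AzaD against HF, 2 to 9 in HF_PBS against chow, 1 to 4 in HF_5AzaD against chow and 7 to 9 in injected against uninjected. Of 17 calls in the 4 comparisons of an injected with an uninjected group, 3 were kept in all 16 rounds: Slc25a25 in both comparisons with chow and Slc25a24, below the filter in chow, in HF_PBS against chow. Of 32 single gene results 1 changed sign: Slc25a1 in HF_5AzaD against HF_PBS was 0.0213 without HF 8, HF_PBS 3 and HF_PBS 4. Where no cause is given, the cause was not tested. Depth is known only relative to chow 2, so no counting interval can be given for the 12 tested members below 10 FPKM or for those below 1 FPKM.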
